A study of Homo sapiens with 6 samples.

Results

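Integrins are the cell surface receptors that hold cells to the extracellular matrix, and laminins and collagens are the matrix proteins that many of them bind. The gene table was searched for integrin α and β subunit genes, laminin α, β and γ chain genes and collagen chain genes by the form of their symbols. The search found 82 of the 58735 genes listed: 26 integrin subunits, 12 laminin chains and 44 collagen chains. Expression was measured by RNA sequencing in PANC-1 cells, an established human line of pancreatic ductal adenocarcinoma grown in serum-containing medium. In 3 samples the cells had received a control siRNA, called si-NC, and in 3 an siRNA that targets METTL16, called si-METTL16 or silenced. METTL16 is an RNA methyltransferase that places N6-methyladenosine on selected transcripts. The comparison asked which of these receptor and matrix genes differed when METTL16 was silenced. Another label calls the si-NC cells WT, although all 6 samples are described as transfected. The study's methods describe triplicates, speak of stable transfection and list several METTL16 siRNAs, but which siRNA was used for sequencing and how long after transfection the RNA was taken are not given in the sources used here. All values come from 1 cell line, so the p-values measure only the spread between its samples.

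An integrin is a pair of an α and a β subunit, and the pair decides the ligand. ITGB1 joins most α subunits, of which ITGA3, ITGA6 and ITGA7 make laminin receptors, ITGA1, ITGA2, ITGA10 and ITGA11 make collagen receptors, and ITGA5 makes the main fibronectin receptor, while ITGAV pairs with several β subunits to bind ligands that carry an arginine-glycine-aspartate (RGD) motif. Laminins are cross-shaped trimers of an α, a β and a γ chain that form the sheet of the basement membrane together with the network of collagen IV. Collagens are trimers too, either of identical or of mixed chains, and are sorted by what they build: fibrils, basement membrane networks, beaded filaments, linkers on fibril surfaces (the FACIT collagens), anchoring fibrils, or membrane proteins. The dense matrix of pancreatic tumours is laid down largely by stromal fibroblasts, and a cultured epithelial line shows only what the tumour cells themselves transcribe.

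METTL16 checked the labels: it stood at 5.47, 5.78 and 6.02 FPKM (fragments scaled by gene length and library size) in the si-NC samples and at 2.04, 2.00 and 2.06 FPKM in the si-METTL16 samples, 35.9% of control (log2 fold change −1.48, SE 0.07, edgeR quasi-likelihood test, adjusted p = 8.34e-05). Library totals lay between 15725298 and 18054436 counts, so that 3 counts corresponded to 0.167 to 0.192 CPM (counts scaled to a common library size) and differences of genes near this level are poorly measured. The 82 genes held 0.818 to 0.964% of the counts. The epithelial markers were all 6 detected, with a summed level of 309 to 411 FPKM in si-NC and 326 to 363 FPKM in silenced samples. At an adjusted p under 0.05, 3 of them were lower after silencing, where 17.5% of all tested genes were. These were CDH1 at −1.09, KRT7 at −0.84 and KRT19 at −1.40 on the log2 scale. Above that threshold were EPCAM at 0.44, KRT18 at 0.2 and KRT8 at −0.23. The part of these differences in the results below was not tested. Of 8 fibroblast markers only THY1 reached the tested level, FAP had no count, and the summed level was 0.310 to 0.654 FPKM against 0.332 to 0.486 FPKM. The 5 endothelial markers stayed below the filter on low counts, with a summed level of 0.118 to 0.131 FPKM in si-NC and 0.0325 to 0.0768 FPKM in silenced samples, as did the 4 acinar markers. The 6 leukocyte markers summed to 1.98 to 2.18 FPKM against 2.09 to 2.55 FPKM, with CD3E at 0. In bulk RNA, a change in the number of cells of a kind and a change in RNA per cell cannot be told apart.

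Of the 82 genes, 54 had enough counts to be tested and 28 did not. A gene was called when its Benjamini-Hochberg adjusted p over all 15089 tested genes was under 0.05 in edgeR's quasi-likelihood test. Among the 54, 30 were called, or 55.6%, where 35.9% of all tested genes were. They comprised 19 that rose after METTL16 silencing, against 18.4% of all tested genes, and 11 that fell, against 17.5%. A called change of at least 1 on the log2 scale was found for 12, where the share over all tested genes was 7.77%. The CPM values of the 2 groups did not overlap for 38 of the 54, where 50.9% of all tested genes did not. Collagen chains had 12 higher and 6 lower genes of 28 tested (median log2 fold change 0.37), integrin subunits 5 higher and 3 lower of 16 (median 0.01), and laminin chains 2 higher and 2 lower of 10 (median −0.05). The median over all tested genes was 0.0. For a single gene, an exact permutation test of 3 against 3 samples cannot give a two-sided p below 0.1, so calls rest on the spread that edgeR shares across genes. Some of the 54 passed the filter only through the group in which they were high. Among the 43 with at least 10 counts in every sample 16 rose and 11 fell, where 5321 of all 13768 genes under that filter were called.

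**Figure D1:**
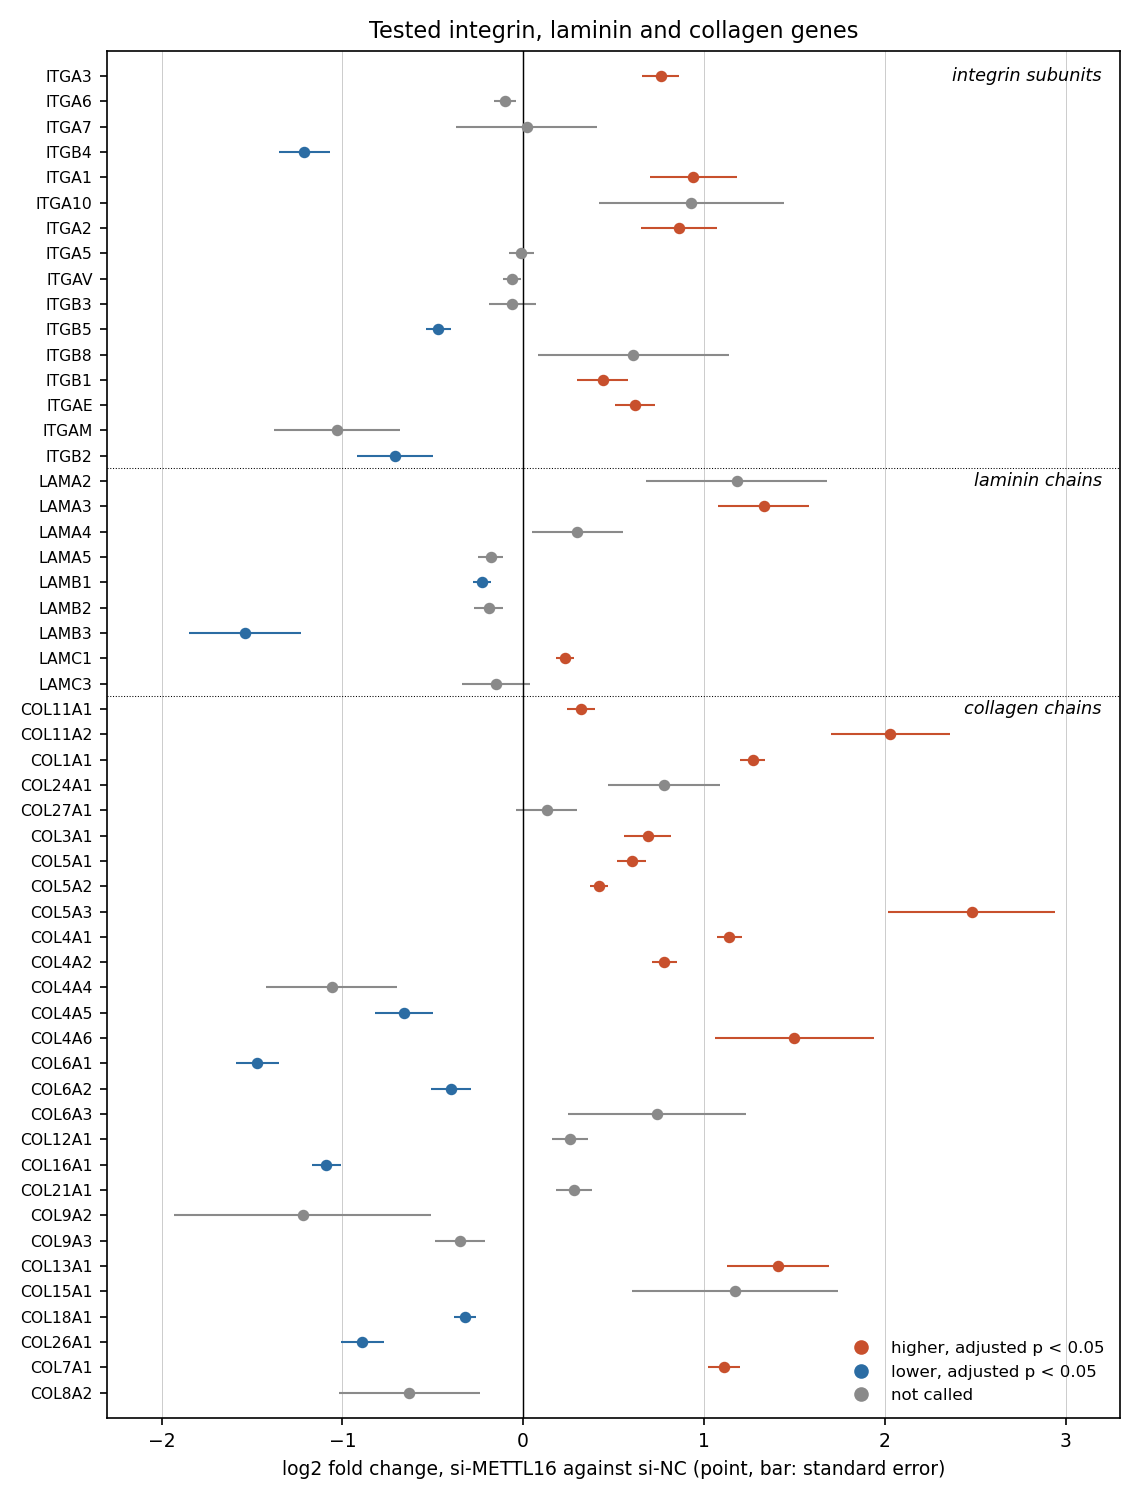
Log2 fold change of si-METTL16 against si-NC samples (x axis) for 53 of the 54 tested genes (y axis), with bars of 1 standard error. Orange points are the 19 genes that rose, blue points the 11 that fell and grey points 23 that were not called.

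The 28 untested genes had at most 19 counts in any sample. They were ITGA2B, ITGA4, ITGA8, ITGA9, ITGA11, ITGAD, ITGAL, ITGAX, ITGB6, ITGB7, LAMA1, LAMB4, COL1A2, COL2A1, COL4A3, COL6A5, COL6A6, COL8A1, COL9A1, COL10A1, COL14A1, COL17A1, COL19A1, COL20A1, COL22A1, COL23A1, COL25A1 and COL28A1. No count was found in any sample for 6 of them: ITGAD, COL8A1, COL9A1, COL10A1, COL19A1 and COL25A1. At this depth such genes were not detectable, which does not show that they are silent.

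By level per gene length, ITGB1 was the most abundant of the 82 in si-NC samples at 127 ± 1.55 FPKM (SD, n = 3), followed by COL18A1 at 92.8 ± 2.85 and COL5A2 at 82.4 ± 3.84 FPKM. ITGAV at 60.4 ± 2.34 and ITGB5 at 59.5 ± 2.72 FPKM came next and did not differ beyond their spread, nor did LAMB1 at 36.8 ± 1.56 and LAMC1 at 36.1 ± 0.795 FPKM, or ITGA5 at 29.0 ± 2.21 and COL1A1 at 26.4 ± 2.23 FPKM. In si-METTL16 samples the order was ITGB1 at 170 ± 36.0 FPKM, COL5A2 at 108 ± 2.81, COL18A1 at 73.2 ± 5.00, COL1A1 at 62.5 ± 1.80, ITGAV at 56.9 ± 1.04, ITGB5 at 42.3 ± 2.61 and LAMC1 at 41.8 ± 0.465 FPKM, of which only the last pair lay within its spread. COL5A2 and COL18A1 thus changed places, and COL1A1 moved above ITGAV.

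**Figure D2:**
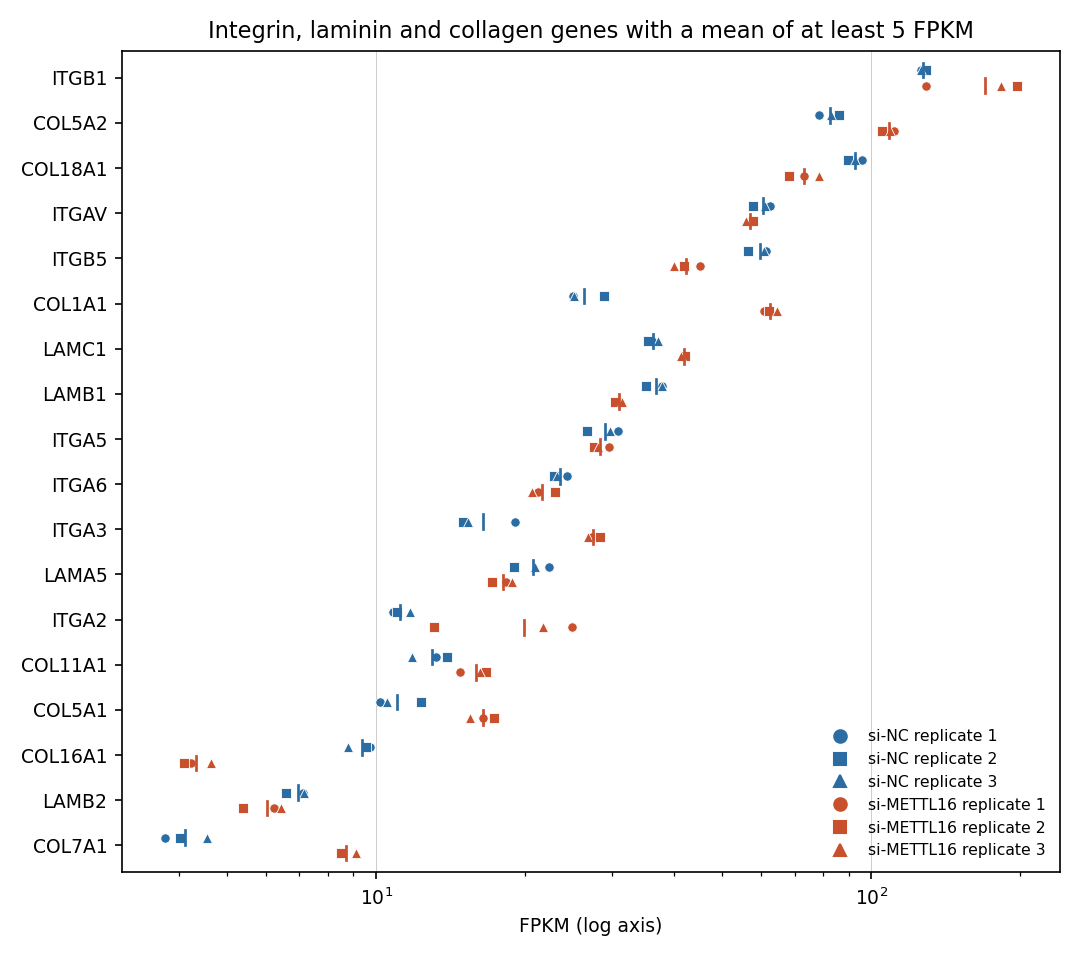
FPKM on a log axis for 18 genes with a mean of at least 5 FPKM, 1 point per sample (si-NC blue, si-METTL16 orange, replicate by shape) with a bar at each group mean. The COL1A1 groups stand well apart, at 25.0 to 28.9 against 60.8 to 64.4 FPKM, and the ITGB1 and ITGA2 values of the si-METTL16 samples are spread out.

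Among the laminin receptor subunits, ITGA3 rose and ITGB4 fell, and the level of ITGA6, which can pair with either ITGB1 or ITGB4, was not called. ITGA3 (GRCh38 chr17:50055968-50090481) stood at 19.1, 15.0 and 15.3 FPKM in si-NC and at 27.3, 28.3 and 26.8 FPKM in silenced samples, without overlap (log2 fold change 0.76, SE 0.10, adjusted p = 0.00124). ITGB4, whose long cytoplasmic tail ties hemidesmosomes to keratin filaments, stood at 2.45, 1.85 and 1.96 FPKM against 0.877, 0.947 and 0.836 FPKM (log2 fold change −1.21, SE 0.14, adjusted p = 0.000756). Every si-METTL16 sample lay below every si-NC sample. ITGA6 stood at 24.3, 22.9 and 23.2 FPKM against 21.2, 23.0 and 20.6 FPKM, and these ranges overlapped (log2 fold change −0.10, SE 0.06, adjusted p = 0.255). ITGA7, a laminin receptor subunit of muscle, had 9 to 26 counts per sample and a log2 fold change of 0.02 (adjusted p = 0.973).

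The balance between laminin receptor subunits differed accordingly. The ratio of ITGB4 to ITGA6 FPKM was 0.101, 0.0809 and 0.0846 in si-NC and 0.0413, 0.0412 and 0.0406 in silenced samples. The ratio of ITGA3 to ITGA6 was 0.787, 0.654 and 0.658 against 1.29, 1.23 and 1.30. In the control samples ITGA6 was thus the more abundant α subunit, and in the silenced samples ITGA3 was. For the pair of ITGA6 with ITGB4, the less abundant message was ITGB4 in both groups, at a mean of 2.09 and then 0.886 FPKM, far under the level of ITGB1.

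ITGB1 (chr10:32900319-33005792), the β subunit shared by the laminin, collagen and fibronectin receptors, stood at 126, 129 and 126 FPKM in si-NC and at 129, 197 and 183 FPKM in silenced samples (log2 fold change 0.44, SE 0.14, adjusted p = 0.0462). The first silenced sample lay at the control level and the other 2 lay above it. Without si-METTL16 replicate 1 the log2 fold change was 0.60 (adjusted p = 0.00111). Leaving out any of the other 5 samples lost the call, with log2 fold changes of 0.43, 0.44 and 0.44 without si-NC replicates 1, 2 and 3 and of 0.32 and 0.39 without si-METTL16 replicates 2 and 3 (adjusted p = 0.098 to 0.131). Scaling by library totals alone gave 0.42 (adjusted p = 0.0569). ITGB1 exons share 401 bases with the divergent transcript ITGB1-DT, which had 81 counts in all beside 159756 for ITGB1.

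On the ligand side, the chains of the widespread laminins were abundant, with log2 fold changes between −0.23 and 0.23. LAMA5 is the α chain of laminins 511 and 521, which bind ITGA3 and ITGA6 receptors with high affinity. It stood at 22.3, 19.0 and 20.9 FPKM in si-NC and at 18.3, 17.1 and 18.8 FPKM in silenced samples, which lay just below the controls (log2 fold change −0.18, SE 0.07, adjusted p = 0.0965, and −0.24 with adjusted p = 0.0406 without si-NC replicate 2). LAMA5 exons overlap 244 bases of ADRM1 on the other strand (11700 counts in all beside 35192 for LAMA5). LAMB1, the β chain of laminin 511, fell from 37.7, 35.0 and 37.7 FPKM to 31.1, 30.4 and 31.4 FPKM (log2 fold change −0.23, SE 0.05, adjusted p = 0.0132, and −0.21 with adjusted p = 0.0503 without si-NC replicate 3). It overlaps 300 exonic bases of DLD on the opposite strand, a gene with 13451 counts in all that was itself called higher by 0.18 on the log2 scale.

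LAMB2, the β chain of laminin 521, stood at 7.11, 6.59 and 7.14 FPKM against 6.23, 5.39 and 6.41 FPKM (log2 fold change −0.19, SE 0.08, adjusted p = 0.124). LAMC1, the γ chain common to most laminins, rose from 36.1, 35.4 and 37.0 FPKM to 42.0, 42.1 and 41.2 FPKM (log2 fold change 0.23, SE 0.05, adjusted p = 0.00845). LAMB1 and LAMC1, which sit side by side in the same trimers, therefore went in opposite directions, and the ratio of LAMC1 to LAMB1 FPKM was 0.957, 1.01 and 0.980 in si-NC and 1.35, 1.39 and 1.31 in silenced samples. The β chains summed to 44.2 ± 1.99 against 37.1 ± 1.07 FPKM (SD, n = 3).

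Laminin 332 is the epithelial laminin of hemidesmosomes, which contains LAMA3 and LAMB3 and is bound by ITGA6 with ITGB4. LAMA3 and LAMB3 went in opposite directions. LAMA3 had 26, 47 and 38 counts in si-NC and 102, 82 and 87 counts in silenced samples, or 0.0831, 0.150 and 0.117 FPKM against 0.329, 0.280 and 0.259 FPKM, and rose (log2 fold change 1.33, SE 0.25, adjusted p = 0.00598). LAMB3 had 53, 30 and 53 counts against 16, 14 and 15 counts, or 0.507, 0.286 and 0.490 FPKM against 0.155, 0.143 and 0.134 FPKM, and fell (log2 fold change −1.54, SE 0.31, adjusted p = 0.00752). Neither gene's groups overlapped. The ratio of LAMA3 to LAMB3 was 0.164, 0.523 and 0.239 in si-NC and 2.13, 1.96 and 1.94 in silenced samples, so the lower of these messages was LAMA3 in controls (mean 0.117 FPKM) and LAMB3 after silencing (mean 0.144 FPKM).

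**Figure D3:**
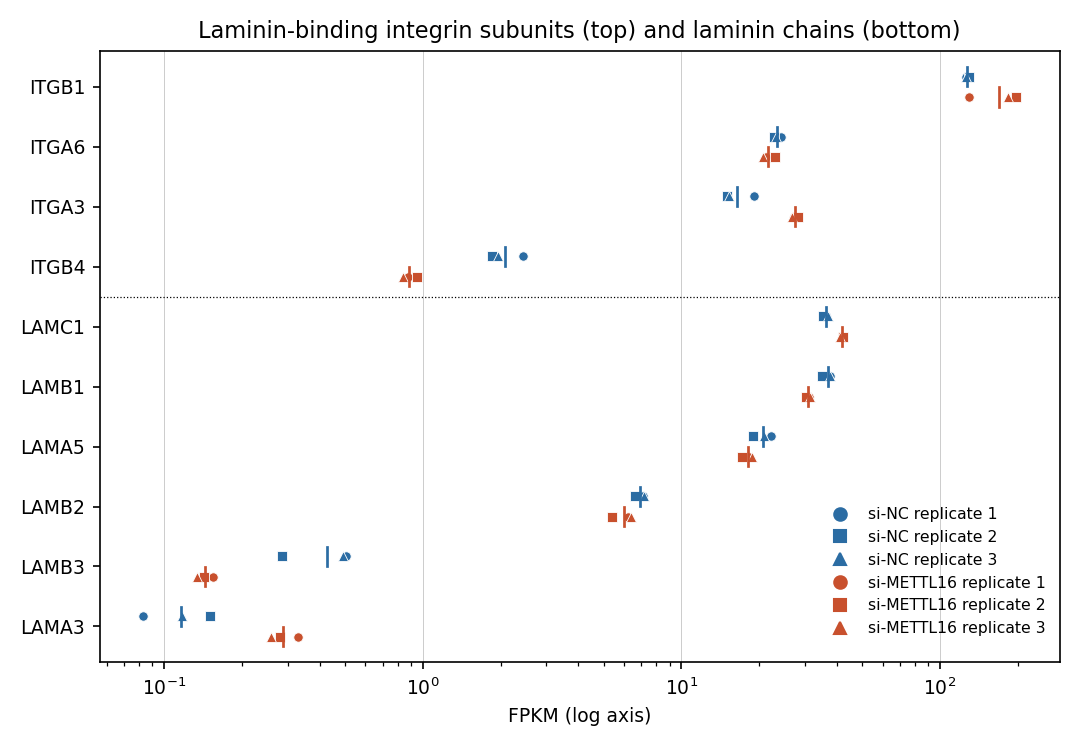
FPKM on a log axis for the laminin-binding integrin subunits (above the dotted line) and laminin chains (below it), 1 point per sample with a bar at each group mean. ITGA3 and LAMA3 lie to the right after silencing and ITGB4 and LAMB3 to the left, while ITGA6 overlaps between si-NC (blue) and si-METTL16 (orange).

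Other laminin chains were low and not called. LAMA2, the muscle and nerve chain, had a log2 fold change of 1.18 on 2 to 14 counts per sample (adjusted p = 0.108). LAMA4, a vascular chain, had 0.30 (adjusted p = 0.377) and LAMC3 had −0.15 (adjusted p = 0.58).

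Among the collagen receptor subunits, ITGA1 and ITGA2 rose. ITGA2, the α subunit of the main epithelial collagen I receptor, stood at 10.8, 11.0 and 11.7 FPKM in si-NC and at 24.9, 13.1 and 21.7 FPKM in silenced samples (log2 fold change 0.86, SE 0.21, adjusted p = 0.0189). All silenced samples lay above the controls, but the second only slightly. Without si-METTL16 replicate 2 the log2 fold change was 1.08 (adjusted p = 0.00116), and without any other sample the call was lost, at 0.83, 0.84 and 0.89 without si-NC replicates 1, 2 and 3 and 0.65 and 0.79 without si-METTL16 replicates 1 and 3 (adjusted p = 0.0514 to 0.0616). The order of the silenced samples differed from that of ITGB1, whose low sample was replicate 1, and the ratio of ITGA2 to ITGB1 overlapped between groups.

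ITGA1, which prefers collagen IV, was much less abundant than ITGA2, at a mean of 0.10 FPKM in controls, and had 35, 44 and 42 counts against 70, 91 and 63 counts (log2 fold change 0.94, SE 0.24, adjusted p = 0.0213). The call was lost without si-NC replicate 1 (0.85), si-NC replicate 3 (0.95) or si-METTL16 replicate 2 (0.72), with adjusted p = 0.0607 to 0.0672. ITGA1 shares 499 exonic bases with PELO on the same strand, which had 3467 counts in all beside 345 for ITGA1 and a log2 fold change of 0.06. ITGA10 had 0.93 on 5 to 27 counts per sample (adjusted p = 0.195), and ITGA11, a fibroblast receptor for fibrillar collagen, had 1 count over the 6 samples.

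Of 11 fibrillar collagen genes, which encode ligands of these receptors, 9 were tested, 7 rose and none fell (median log2 fold change 0.69), where 18.4% of all tested genes rose. The groups of 8 did not overlap, where 50.9% of all tested genes did not. Of the 7 that rose, COL5A3 and COL11A2 reached the tested level only through the silenced samples. The genes not called were COL24A1 at 0.78 (adjusted p = 0.0927) and COL27A1 at 0.13 (adjusted p = 0.585). COL1A1, COL5A2, COL5A1 and COL11A1 were abundant and the other fibrillar chains were low.

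COL1A1 (chr17:50183289-50201632), the major chain of collagen I, stood at 25.0, 28.9 and 25.1 FPKM in si-NC and at 60.8, 62.1 and 64.4 FPKM in silenced samples, a 2.40-fold higher level (log2 fold change 1.27, SE 0.07, adjusted p = 9.39e-05). Its partner COL1A2, which completes the usual collagen I trimer with COL1A1, had 1 count in each group, while a trimer of COL1A1 alone needs no partner. COL5A2 rose from 78.4, 86.0 and 82.8 FPKM to 111, 105 and 109 FPKM (log2 fold change 0.42, SE 0.05, adjusted p = 0.00117). Its partner COL5A1 rose from 10.2, 12.3 and 10.5 FPKM to 16.4, 17.3 and 15.5 FPKM (log2 fold change 0.60, SE 0.08, adjusted p = 0.00191). Collagen V starts and limits the width of collagen I fibrils, and its 2 main chains were both higher in each silenced sample than in any control.

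COL11A1, whose protein fills a similar role in cartilage, rose from 13.2, 13.9 and 11.8 FPKM to 14.8, 16.7 and 16.2 FPKM (log2 fold change 0.32, SE 0.08, adjusted p = 0.0181). The call was lost without si-NC replicate 3 (0.25), si-METTL16 replicate 2 (0.28) or si-METTL16 replicate 3 (0.31), with adjusted p = 0.0537 to 0.0607. COL3A1, the collagen of distensible tissues, rose from 0.846, 1.0 and 1.05 FPKM to 1.52, 1.39 and 1.69 FPKM (log2 fold change 0.69, SE 0.13, adjusted p = 0.00731). COL5A3 and COL11A2, rare partners of these chains, had fewer than 10 counts in every control sample, so the size of their change is poorly known. COL5A3 had 2, 3 and 4 counts in si-NC and 14, 12 and 25 in silenced samples (fitted log2 fold change 2.48, SE 0.46, adjusted p = 0.0057, with controls at the level of 3 counts), and COL11A2 had 5, 9 and 6 against 26, 23 and 32 counts (log2 fold change 2.03, SE 0.33, adjusted p = 0.00326).

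The summed level of all collagen chains was 257, 264 and 257 FPKM in si-NC and 307, 301 and 317 FPKM in silenced samples, 1.19 times the control mean. Fibrillar chains summed to 134 ± 7.53 and 205 ± 1.72 FPKM (SD, n = 3). COL1A1 held 10.2 ± 0.689% of the summed collagen FPKM in si-NC and 20.3 ± 0.424% in silenced samples. COL18A1 held 35.8 ± 1.62% and then 23.7 ± 1.02%, and COL5A2 held 31.8 ± 1.11% and then 35.1 ± 0.938%. The most abundant collagen message was thus COL18A1 in the control cells and COL5A2 in the silenced cells.

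**Figure D4:**
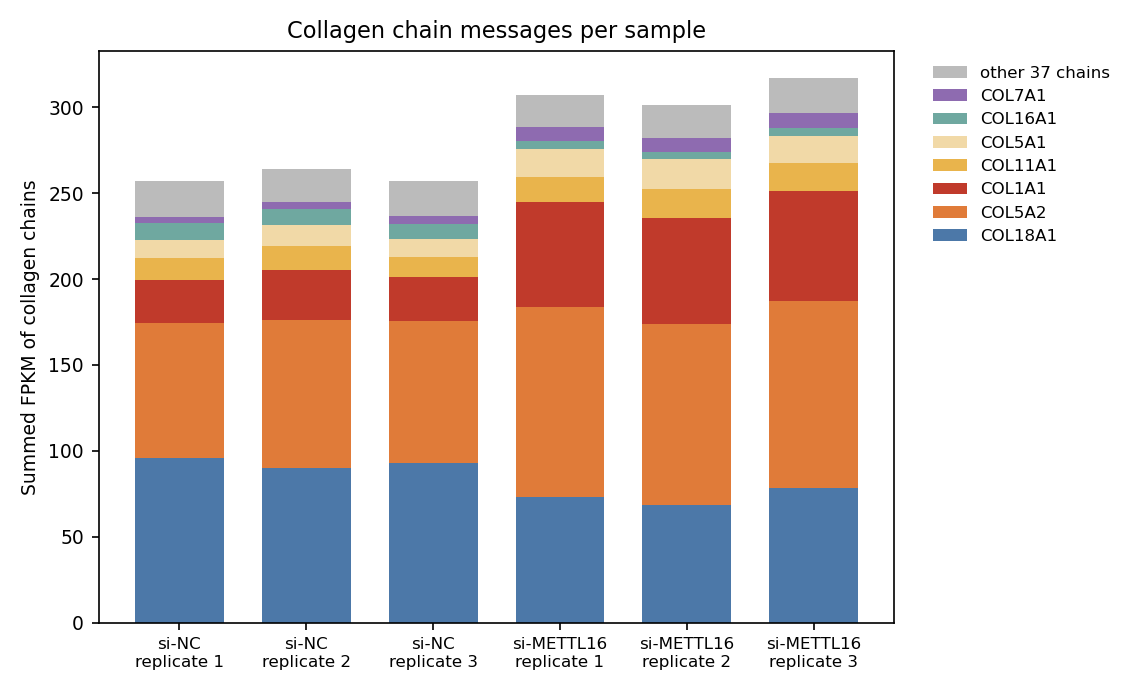
Summed FPKM of the 44 collagen chains in each of the 6 samples (stacked bars from 0), with the 7 most abundant chains coloured and the other 37 in grey. The bars reach 257 to 264 FPKM in si-NC and 301 to 317 FPKM in silenced samples, with a taller COL1A1 band and a shorter COL18A1 band after silencing.

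Collagen IV, the network of the basement membrane, is encoded by 6 genes that lie in head-to-head pairs, each pair transcribed in opposite directions from a common stretch of DNA. The sequences shown are the DNA between the facing starts of each pair as far as the RefSeq start windows (250 bases before to 50 after a start) of both genes cover it, because COL4A1 and COL4A2 rose together while COL4A6 and COL4A5 were called in opposite directions. They are read 5′ to 3′ on the plus strand of GRCh38.p14, and capitals mark CCAAT and GGGCGG or their reverse complements ATTGG and CCGCCC, boxes known to be bound by NF-Y and by SP1-like factors. ATTGG and GGGCGG can share bases.
COL4A1/COL4A2: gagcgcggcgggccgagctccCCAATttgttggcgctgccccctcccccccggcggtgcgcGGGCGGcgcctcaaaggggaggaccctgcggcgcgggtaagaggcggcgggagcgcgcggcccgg
COL4A4/COL4A3: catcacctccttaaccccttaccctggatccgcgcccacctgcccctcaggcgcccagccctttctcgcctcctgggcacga
COL4A6/COL4A5: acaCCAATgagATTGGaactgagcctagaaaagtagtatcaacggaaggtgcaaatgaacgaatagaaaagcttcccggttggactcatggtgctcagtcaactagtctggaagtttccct
The COL4A1/COL4A2 stretch, chr13:110307158-110307283, spans the 126 bases between RefSeq starts that lie 127 bases apart, with a GC content of 80.2%, 1 CCAAT and 1 GGGCGG. In the deposited spans COL4A2 starts at 110305812 and COL4A1 ends at 110307233, so the genes overlap there. The COL4A4/COL4A3 stretch, chr2:227164374-227164455, spans 82 bases at 67.1% GC between RefSeq starts 419 bases apart and holds neither. The deposited COL4A4 span reaches 227164453 and so covers most of it. The COL4A6/COL4A5 stretch, chrX:108439588-108439708, spans 121 bases at 44.6% GC between starts 380 bases apart and holds 2 CCAAT and no GGGCGG. Over all 35116 RefSeq start windows CCAAT was found in 34.6% and GGGCGG in 45.0%. Of 77 windows of 58 of the 82 genes, 20 held CCAAT (26.0%) and 43 held GGGCGG (55.8%). A match of letters is a description of the DNA and not a measured binding site.

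COL4A1 stood at 1.11, 1.14 and 1.09 FPKM in si-NC and at 2.42, 2.39 and 2.45 FPKM in silenced samples (log2 fold change 1.14, SE 0.07, adjusted p = 0.000121). COL4A2, the partner in its trimer as well as across the promoter, rose from 1.70, 1.57 and 1.67 FPKM to 2.85, 2.67 and 2.82 FPKM (log2 fold change 0.78, SE 0.07, adjusted p = 0.00035). The rise was not equal, since the ratio of COL4A1 to COL4A2 FPKM was 0.651, 0.724 and 0.655 in si-NC and 0.850, 0.893 and 0.869 in silenced samples.

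COL4A5 and COL4A6, whose starts lie on either side of the stretch on the X chromosome, were called in opposite directions, but COL4A6 had 10 counts or more in only 1 control sample and reached the tested level through the silenced samples. COL4A5 fell from 1.95, 1.45 and 2.08 FPKM to 1.22, 0.977 and 1.23 FPKM (log2 fold change −0.66, SE 0.16, adjusted p = 0.0174), and the call was lost without si-NC replicate 1 (−0.61), si-NC replicate 3 (−0.56) or si-METTL16 replicate 2 (−0.56), with adjusted p = 0.0543 to 0.0582. COL4A6 had 9, 9 and 15 counts in si-NC and 39, 14 and 39 counts in silenced samples, or 0.0415, 0.0413 and 0.0667 FPKM against 0.181, 0.0689 and 0.167 FPKM, and rose (log2 fold change 1.50, SE 0.44, adjusted p = 0.0354). Its second silenced sample lay close to the controls. Without that sample COL4A6 had 1.81 (adjusted p = 0.0134), and the call was lost at 1.38, 1.37 and 1.76 without si-NC replicates 1, 2 and 3 and at 1.26 and 1.35 without si-METTL16 replicates 1 and 3 (adjusted p = 0.055 to 0.11). COL4A5 was 31.2 to 47.0 times as abundant as COL4A6 in si-NC and 6.72 to 14.2 times in silenced samples.

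COL4A4 had 36, 34 and 22 counts in si-NC and 9, 16 and 18 counts in silenced samples, and COL4A3 had 1 to 4 counts in any sample. The groups of COL4A4 did not overlap, but the gene had no call (log2 fold change −1.06, SE 0.36, adjusted p = 0.0546), except without si-NC replicate 3 (−1.26, adjusted p = 0.0492).

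**Figure D5:**
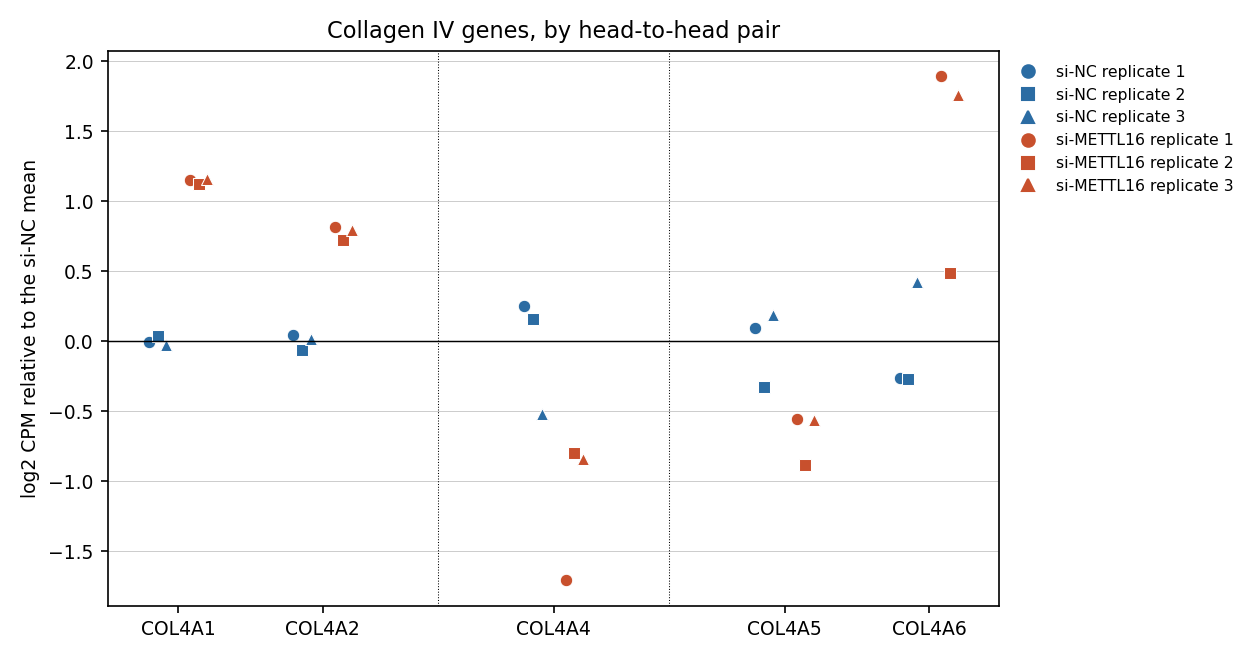
Log2 CPM of each sample relative to the si-NC mean for the 5 tested collagen IV genes, with dotted lines between the head-to-head pairs (si-NC blue, si-METTL16 orange, replicate by shape). COL4A1 and COL4A2 lie above 0 in all silenced samples, while COL4A5 lies below 0 and COL4A6 above it.

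Of 3 tested beaded filament collagens, COL6A1 and COL6A2 fell, where 17.5% of all tested genes fell. COL6A1 stood at 3.82, 3.38 and 3.25 FPKM in si-NC and at 1.12, 1.36 and 1.25 FPKM in silenced samples (log2 fold change −1.47, SE 0.12, adjusted p = 0.000224). COL6A2, which lies downstream of COL6A1 on chromosome 21, fell from 1.70, 1.56 and 1.52 FPKM to 1.17, 1.22 and 1.19 FPKM (log2 fold change −0.40, SE 0.11, adjusted p = 0.0254). The COL6A2 call held only without si-NC replicate 3 (−0.43) among the 6 samples left out in turn. It was lost at −0.35 and −0.42 without si-NC replicates 1 and 2 and at −0.39, −0.41 and −0.39 without si-METTL16 replicates 1, 2 and 3 (adjusted p = 0.0523 to 0.0725). COL6A1 was 2.15 to 2.24 times as abundant as COL6A2 in controls and 0.955 to 1.11 times after silencing. COL6A3, the third chain of the trimer, had only 10 to 36 counts per sample and had no call (log2 fold change 0.74, adjusted p = 0.282).

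Of 5 tested FACIT collagens 1 fell, as did 1 of 2 tested multiplexins, where 17.5% of all tested genes fell. No gene of either group rose. COL16A1, a FACIT collagen that ligates ITGA1 and ITGA2 receptors, fell from 9.73, 9.55 and 8.78 FPKM to 4.22, 4.10 and 4.64 FPKM (log2 fold change −1.09, SE 0.08, adjusted p = 0.000162). COL18A1, a basement membrane proteoglycan and the source of endostatin, fell from 95.6, 89.9 and 92.7 FPKM to 73.0, 68.3 and 78.3 FPKM (log2 fold change −0.32, SE 0.06, adjusted p = 0.00657). No silenced sample of either gene reached the control range. COL18A1 exons share 1563 bases with SLC19A1 on the opposite strand, 18.5% of their length, but SLC19A1 had 1165 counts in all beside 96393. The other multiplexin COL15A1 had 1.17 (adjusted p = 0.149) on 6 to 38 counts. The remaining tested FACIT genes were not called: COL12A1 at 0.26 (adjusted p = 0.0788), COL21A1 at 0.28 (adjusted p = 0.072), COL9A2 at −1.22 (adjusted p = 0.22) and COL9A3 at −0.35 (adjusted p = 0.104). Leaving out 1 sample brought a call for COL21A1 (without si-METTL16 replicate 1, 0.34, adjusted p = 0.0496) and, without si-METTL16 replicate 3, for COL9A2 (fitted −2.74, adjusted p = 0.0202) and COL9A3 (−0.49, adjusted p = 0.0359). COL9A2 had 19, 13 and 13 counts in si-NC and 3, 1 and 15 in silenced samples. Without si-METTL16 replicate 3 its silenced samples lay at or below 3 counts, so the size of its change is poorly known.

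COL7A1, which forms the anchoring fibrils that fasten the basement membrane to the collagen below, rose from 3.74, 4.02 and 4.55 FPKM to 8.51, 8.49 and 9.10 FPKM (log2 fold change 1.11, SE 0.09, adjusted p = 0.000212). Its protein binds laminin 332, of which LAMA3 rose and LAMB3 fell. COL13A1, a membrane collagen of cell junctions, had 35, 18 and 28 counts in si-NC and 60, 74 and 75 in silenced samples (log2 fold change 1.41, SE 0.28, adjusted p = 0.0073). COL26A1 fell from 2.96, 2.91 and 3.06 FPKM to 1.66, 1.51 and 1.57 FPKM (log2 fold change −0.89, SE 0.12, adjusted p = 0.00125). COL8A2, a network collagen of the cornea, had −0.63 (adjusted p = 0.244).

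Of 5 tested subunits of RGD-binding integrins, ITGB5 fell and none rose, where 17.5% of all tested genes fell and 18.4% rose. ITGB5, the partner of ITGAV in a vitronectin receptor, fell from 61.4, 56.4 and 60.8 FPKM to 45.1, 41.8 and 39.9 FPKM (log2 fold change −0.47, SE 0.07, adjusted p = 0.00181). ITGAV itself stood at 62.4, 57.8 and 60.9 FPKM against 57.1, 57.8 and 55.8 FPKM and had no call (log2 fold change −0.06, SE 0.05, adjusted p = 0.355). The ratio of ITGB5 to ITGAV was 0.984, 0.976 and 0.999 in si-NC and 0.790, 0.723 and 0.715 in silenced samples. ITGA5 stood at 30.8, 26.6 and 29.6 FPKM against 29.5, 27.6 and 28.0 FPKM (log2 fold change −0.01, SE 0.07, adjusted p = 0.932). ITGB3, the other vitronectin receptor β subunit, had −0.06 (adjusted p = 0.749). ITGB6, an epithelial partner of ITGAV, had 10, 5 and 5 counts in si-NC and 0, 0 and 2 in silenced samples and was below the tested level.

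ITGB8, which with ITGAV binds latent TGF-β, depended on 1 sample. It stood at 0.958, 0.210 and 0.262 FPKM in si-NC and at 0.751, 0.616 and 0.783 FPKM in silenced samples, and had no call (log2 fold change 0.61, SE 0.53, adjusted p = 0.408). The first control sample was the highest of all 6. Without si-NC replicate 1 the log2 fold change was 1.62 (adjusted p = 0.00271), and without si-NC replicate 2 or 3 it was 0.25 or 0.31.

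Of 9 subunits typical of leukocytes or of receptors for VCAM1 and E-cadherin, 3 were tested. ITGAE, which binds E-cadherin when paired with ITGB7, rose from 2.86, 2.45 and 3.02 FPKM to 3.88, 4.26 and 4.49 FPKM (log2 fold change 0.62, SE 0.11, adjusted p = 0.00427). ITGB7 had 0 to 6 counts per sample, so the partner message was below the tested level, and CDH1, the E-cadherin gene, fell (log2 fold change −1.09). ITGAE shares 427 exonic bases, 6.47% of its exons, with HASPIN on the opposite strand, which had 1427 counts in all beside 2955 for ITGAE and was itself higher by 1.37 on the log2 scale. Whether reads from HASPIN entered the ITGAE counts was not tested. ITGB2 had 58, 65 and 56 counts in si-NC and 32, 40 and 34 in silenced samples and fell (log2 fold change −0.71, SE 0.21, adjusted p = 0.0365). The ITGB2 call held without si-METTL16 replicate 2 (−0.86) and was lost at −0.72, −0.64 and −0.77 without si-NC replicates 1, 2 and 3 and at −0.65 and −0.62 without si-METTL16 replicates 1 and 3 (adjusted p = 0.0688 to 0.11). Its partner ITGAM had −1.03 (adjusted p = 0.0574). Of the 6 leukocyte markers 2 were tested, of which CD68 rose (0.67, adjusted p = 0.00928) and CD14 fell (−1.0, adjusted p = 0.0409), and their summed level was 1.98 to 2.18 FPKM in controls and 2.09 to 2.55 FPKM after silencing.

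Several of the genes are neighbours. ITGA3 and COL1A1 lie 93619 bases apart on chromosome 17 and both rose, as did ITGA1 and ITGA2, which lie 30130 bases apart on chromosome 5, and COL3A1 and COL5A2, which lie 19151 bases apart on chromosome 2. COL6A1 and COL6A2, which lie 93061 bases apart on chromosome 21, both fell.

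The lists of related genes below were chosen with earlier results of these data known, so their shares are descriptions only. Matrix proteins that share receptors or networks with these chains were taken as a list of 22. Of these, 15 were tested, 8 rose and 4 fell (median log2 fold change 0.47), or 80.0% against 35.9% of all tested genes. The highest were THBS1, a thrombospondin, at 1.41 (adjusted p = 0.000111) and CCN1, an RGD-independent integrin ligand listed under its older symbol CYR61, at 1.14 (adjusted p = 0.000121). The lowest were VTN, the vitronectin gene, with 15, 29 and 17 counts against 3, 0 and 2 (adjusted p = 0.00674), and SPARC, a collagen chaperone and binding protein, at −1.23 (adjusted p = 0.000736). VTN reached the tested level only through the control samples and lay at or below 3 counts after silencing, so the size of its change is poorly known. NID1, which links laminin to collagen IV, rose from a mean of 44.4 ± 2.04 to 76.8 ± 0.015 FPKM (log2 fold change 0.81, adjusted p = 0.000131). FN1, the fibronectin gene and main ligand of ITGA5, was below the tested level, with 8, 5 and 5 counts in si-NC and 4, 16 and 1 in silenced samples. Other ligands of RGD-binding integrins in the list differed widely in level. SPP1 and NPNT were below the tested level, and EDIL3 had a mean of 1.16 FPKM in si-NC and 0.78 FPKM in silenced samples. MFGE8 and TGFBI were abundant. MFGE8 fell from a mean of 71.9 ± 11.3 to 55.5 ± 2.75 FPKM (log2 fold change −0.35, adjusted p = 0.0399). TGFBI rose from 39.9 ± 3.18 to 58.7 ± 1.82 FPKM (0.58, adjusted p = 0.000908).

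Of 11 non-integrin receptors for laminin and collagen, 10 were tested, 3 rose and 1 fell, or 40.0% against 35.9% of all tested genes. The highest were SDC4, a heparan sulfate proteoglycan of focal adhesions, at 1.35 (adjusted p = 9.2e-05) and CD44 at 0.68 (adjusted p = 0.00215), and the gene that fell was BCAM, a receptor for the LAMA5 chain, at −0.68 (adjusted p = 0.0115). Of 28 proteins that link integrins to actin or regulate them, 26 were tested, 5 rose and 4 fell, or 34.6%, near the 35.9% of all tested genes. FLNA at 0.48 (adjusted p = 0.000921) and VCL at 0.40 (adjusted p = 0.00251), actin-binding partners of the integrin tail complex, were the highest, and TNS4 at −0.91 (adjusted p = 0.0115) and KANK2 at −0.51 (adjusted p = 0.00576) the lowest.

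Of 27 enzymes and other proteins that act on collagen, 24 were tested, 3 rose and 5 fell (median log2 fold change −0.07). The 33.3% called lay near the 35.9% of all tested genes. LOXL4, a collagen cross-linking oxidase, at 0.91 (adjusted p = 0.021) and P4HA2, a prolyl hydroxylase subunit, at 0.32 (adjusted p = 0.0473) were the highest, and COLGALT2, a collagen galactosyltransferase, at −1.45 (adjusted p = 0.00134) and LOXL1 at −0.81 (adjusted p = 0.0219) the lowest. Of 22 matrix proteases and inhibitors, 14 were tested, 4 rose and 5 fell (median −0.39), or 64.3% against the same 35.9%. MMP24 at 2.09 (adjusted p = 0.000229) and PLAU, the urokinase gene, at 1.08 (adjusted p = 0.000148) were the highest, and MMP11 at −1.09 (adjusted p = 0.0237) and MMP15 at −0.81 (adjusted p = 0.00243) the lowest.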

How the data were processed

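The authors deposited 1 table of raw counts per gene and of FPKM, with a column per sample. HISAT2 2.0.4, StringTie 1.3.0 and the GRCh38 build are named in the submitters' processing notes. The counting options, the annotation release and the use of strand are not given in the sources used here. Deposited FPKM were the counts divided by gene length and sample total, as the implied length differed by at most 0.000873% between samples. They were used for levels, ratios and shares, which compare genes per length. Libraries were made with a SMARTER kit from total RNA.

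Counts were analysed with edgeR 4.0.16 (R 4.3.3, TMM scaling, filterByExpr with a minimum count of 10 and total of 15, quasi-likelihood test, Benjamini-Hochberg adjustment over 15089 tested genes, threshold 0.05) across 3 si-NC and 3 si-METTL16 samples with no covariate. The common biological coefficient of variation was 16.5%. Fold changes are si-METTL16 against si-NC on the log2 scale, with edgeR's SE. The fit was tested on simulated data. DESeq2 1.42.0, limma 3.58.1, other filters and scalings, a replicate block and leaving out each sample were the alternatives. Counting error is covered only as far as the spread between samples shows it. No pair of libraries agreed within sampling noise. Samples with the same number in both groups deviated together only weakly (mean correlation 0.0307, against −0.0154 for other numbers), so no block was used.

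The genes, role groups and lists were chosen with earlier results of these data known. Values in every sample were given for tested genes with a mean of at least 5 FPKM and for called genes with a log2 change of at least 1, and from each other list the 2 highest and 2 lowest called genes were named. Of the 82 genes, 1 is counted but not reported here. FN1, NID1, MFGE8, TGFBI, SPP1, NPNT, EDIL3 and the named epithelial and leukocyte markers were chosen after their values were seen. Gene spans are those of the deposited table; strands and exon overlaps were read from GENCODE 44, which held all 82 genes, 19 with the identical span. Start windows of 300 bases were taken from RefSeq (GRCh38.p14) and matched 58 genes by symbol.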

Additional observations from a re-analysis of the deposited data

How the results depend on the processing

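All 30 called genes kept their direction under every alternative, and 21 kept their call under every alternative to the filter, scaling, tool, block or samples that tested them. The calls lost were those of ITGA1, ITGA2, ITGB1, ITGB2, LAMB1, COL11A1, COL4A5, COL4A6 and COL6A2. Limma fits of FPKM logged with an added 1 or 0.1, each restricted to genes with a mean of at least 1 FPKM, called 12 genes higher in both cases instead of 19. Tool, scale and filter differ there together, only 32 of the 82 genes were tested, and ITGB1 was tested without a call (adjusted p = 0.0844 and 0.0849). At an adjusted p under 0.01 edgeR called 3035 genes in all and 7 of the 11 lower integrin, laminin and collagen genes. Leaving out 1 sample at a time gave 14 to 18 higher and 8 to 11 lower genes. With the replicate number as a block, 29 genes were called (20 higher, 9 lower), 28 of them shared with the 30. The block lost ITGB2 and COL6A2 and gained COL15A1 (adjusted p = 0.0495). Same-numbered samples correlated at 0.0253, 0.0371 and 0.0298, too weakly to count as pairs, although each sample correlated best with its own number. Directions turned only for genes near 0 that were not called: ITGA7 had −0.00068 with library totals, −0.05 with voom and −0.04 with the block. Leaving out 1 sample turned ITGA7 (−0.38 to 0.28), ITGA5 (−0.08 to 0.03), ITGB3 (−0.14 to 0.01) and LAMC3 (−0.29 to 0.01). The cause was not tested. Depth limits the 28 untested genes.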
